A study of Sus scrofa with 6 samples.

Results

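Amino acids enter and leave hepatocytes through membrane carriers of several solute carrier (SLC) families. A list of 10 genes of such carriers and their subunits was taken by symbol: SLC7A2, SLC7A5, SLC7A11, SLC3A2, SLC38A1, SLC38A2, SLC38A3, SLC38A4, SLC1A2 and SLC43A1. Of these, 9 were found among the 17109 genes of the expression table, and SLC7A5 is not analysed here. Liver RNA was sequenced from Bama minipigs a few months old and fasted overnight, with 1 animal per library. WT pigs (WT1, WT2 and WT3) carry no edit. ASGR1+/- pigs (S03, S04 and S05) carry 1 ASGR1 allele with a Cas9 deletion that joins part of an intron to the middle of an exon. The line came from founders cloned from edited fetal fibroblasts, and whether the livers were of founders or of their offspring is not given in the sources used here. ASGR1 is the main chain of the receptor by which hepatocytes clear asialoglycoproteins from plasma. The study set S03 aside after a principal-component analysis, so S04 and S05 were compared with WT here, and S03 is given apart.

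Library totals ran from 15397768 to 16237732 estimated counts. Levels are given in CPM, counts scaled to a common library total with the TMM factors of the 6 libraries, and in TPM where genes are compared with each other, since TPM also accounts for gene length. ASGR1 itself was at 285 to 369 CPM in WT and at 273 to 334 CPM in the ASGR1+/- livers. For S04 and S05 the log2 difference was -0.18 (adjusted p of 0.652 from edgeR). The count covers the whole gene, and the effect of the deletion on the transcript was not tested. By immunoblot, the paper reports less ASGR1 protein in livers of ASGR1+/- pigs than of WT pigs. On library totals alone, chromosome Y genes summed to 52.0 CPM in S03 and to 402 to 483 CPM in the other libraries. The part of that difference in the values of S03 was not tested. Per the paper, the pigs generated in the study were male apart from a single female among the offspring. Which library, if any, came from that female is not stated.

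Hepatocytes take up amino acids from portal blood for protein synthesis, gluconeogenesis and the urea cycle, and release others, mainly glutamine. Sodium-coupled carriers of the SLC38 family bring in alanine and glutamine, SLC7 carriers exchange or admit cationic amino acids, large neutral ones and cystine, and SLC1 carriers concentrate glutamate. Several SLC7 proteins are light chains that reach the cell surface only when bound to the heavy chain encoded by SLC3A2. In cultured cells of other mammals, lack of amino acids acts through the transcription factor ATF4 to raise genes such as SLC3A2, SLC7A11 and SLC38A2.

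In WT livers the SLC38 carriers and SLC7A2 made up most of the transcripts of the 9 genes. SLC38A4, a liver-enriched carrier of small neutral amino acids, had 242 TPM in WT1, 243 in WT2 and 208 in WT3, and ranked 504 among all genes by its WT mean. SLC38A3, a glutamine, histidine and asparagine carrier, had 169, 169.5 and 164 TPM. SLC7A2, which carries arginine, lysine and ornithine, followed with a mean of 89.3 ± 21.6 TPM (SD, n = 3). The alanine carrier SLC38A2 came next with 86.0 ± 29.3 TPM (SD, n = 3), and the WT ranges of SLC7A2 and SLC38A2 overlapped. The heavy chain gene SLC3A2 was well below these, at 15.9 ± 1.35 TPM (SD, n = 3). SLC38A1 had 5.81 ± 2.59 TPM (SD, n = 3) and SLC1A2 5.73 ± 2.11 TPM (SD, n = 3), again with overlapping ranges. SLC43A1, a carrier of branched-chain and other large neutral amino acids, had 0.66 to 1.11 TPM, and SLC7A11, the cystine and glutamate exchanger, 0.34 to 0.64 TPM.

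SLC38A4 ranked highest in each of the 6 libraries. SLC38A3 came next to it in all 3 WT libraries and in S05, but took rank 4 in S04 and S03, behind SLC38A2 and SLC7A2. S05 kept the order of the WT means among these 4 genes, whereas WT1 had SLC38A2 above SLC7A2. SLC38A3 supplied 25.7% to 31.1% of the summed TPM of the 9 genes in WT, and 12.9%, 17.7% and 17.0% in S04, S05 and S03. SLC38A4 supplied 37.0% to 39.4% in WT and 48.8%, 43.1% and 37.1% in the same 3 livers. The sum over the 9 genes lay between 509.6 TPM (S03) and 656 TPM (WT1).

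**Figure D1:**
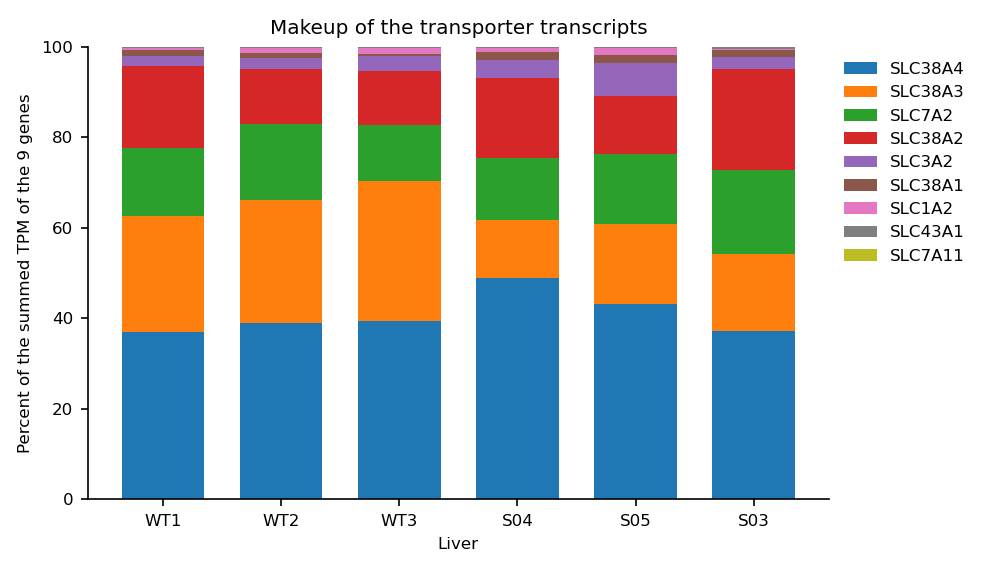
Stacked bars give the percent of the summed TPM of the 9 genes that each gene supplied in each liver (WT1 to WT3 are WT, S03 to S05 are ASGR1+/-). The SLC38A3 segment spans 25.7% to 31.1% in WT and 12.9% to 17.7% in the ASGR1+/- livers.

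With S04 and S05 set against WT, none of the 9 genes passed at an adjusted p of 0.05 or less with the quasi-likelihood test of edgeR. Of the 13401 genes tested, 0.791% passed, 0.216% as higher and 0.575% as lower. At an unadjusted p under 0.05, SLC3A2 and SLC38A1 were higher and SLC38A3 was lower, while 20.9% of all genes were under that limit. DESeq2, the tool of the study, passed SLC3A2 as higher (3.26% of all genes) and SLC38A3 as lower (6.30% of all genes, 9.57% in both directions). Their log2 differences in that fit, 0.93 and -0.97, were under the size of 1 that the study also asked of a changed gene. With S03 included, edgeR again passed none (0.136% of all genes) and DESeq2 passed SLC38A3 alone (5.64% of all genes). In that fit of DESeq2 the log2 difference of SLC38A3 was -1.05, over the size of 1. S04 and S05 did not overlap WT for 4 of the 9 genes (39.1% of all genes). SLC3A2, SLC38A1 and SLC43A1 were on the higher side (19.0% of all genes) and SLC38A3 on the lower side (20.1% of all genes). The median log2 fold change of the 9 was 0.18, beside 0.0031 over all genes tested, and all 9 passed the filter on low counts.

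**Figure D2:**
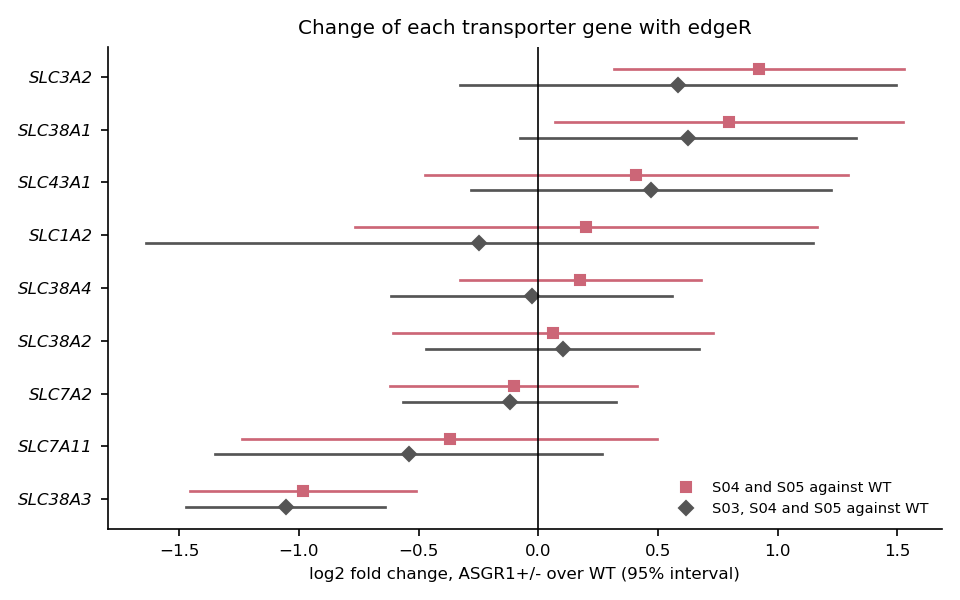
Squares give log2 fold changes for S04 and S05 relative to WT and diamonds those for S03, S04 and S05 relative to WT, from edgeR, with 95% intervals that are not adjusted for the number of genes. SLC38A3 lies at -0.98 and -1.06 with both intervals below 0, and SLC3A2 at 0.92 and 0.58.

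Summed markers of some liver cell types lay outside the WT range in S04 and S05. The 12 hepatocyte markers summed to 60740 and 68850 CPM there, to 71180 in S03 and to 81750 to 201300 in WT. None of them passed with edgeR (0.791% of all genes), and 5 were lower and 1 higher by an unadjusted p under 0.05 (20.9% of all genes). S04 and S05 were below all WT livers for 7 of the 12 (20.1% of all genes). ALB alone was at 33493 to 114470 CPM in WT and at 9048.9 and 12415 in S04 and S05. FGB was above WT in S04 and S05 (29686 and 36655 against 11160 to 23609 CPM). APOA2, SERPINA1, HNF4A and TAT overlapped WT, so the sum does not stand for every marker. The 11 periportal genes summed to 10430 and 7524 CPM in S04 and S05, 14560 in S03 and 13590 to 21490 in WT, and the 12 pericentral genes to 1316 and 1626, 2365 and 2949 to 5551 CPM. The sums of both sets thus lay below WT in S04 and S05, but not every gene did. Without overlap, 6 periportal genes were lower and 1, HAL, higher. Of the pericentral genes 5 were lower and 1, RNF43, higher (20.1% lower and 19.0% higher over all genes). The others overlapped WT. CYP2E1 made up much of the pericentral sum, with 1844 to 3682 CPM in WT and 855 and 742 in S04 and S05. The 11 endothelial markers summed to 263 and 374 CPM in S04 and S05, 843 in S03 and 444 to 546 in WT. The 7 erythroid markers summed to 5.58 and 21.1 CPM, to 799 in S03 and to 87.8 to 252 in WT, so S03 stood on the opposite side of WT from S04 and S05 for both. The 12 macrophage markers were at 1744 and 2162 CPM (S03 1585, WT 2176 to 3312), and the 9 cholangiocyte markers at 123 and 170.1 CPM (S03 121, WT 104 to 115). For lymphocytes, neutrophils and stellate cells S04 or S05 or both were within the WT range of the sum. Single genes of these lists still differed. Of the 11 lymphocyte markers tested, edgeR passed 1 as lower (0.575% of all genes), KLRD1, named after its values were seen. By an unadjusted p under 0.05 from edgeR, 4 of them were lower and 0 higher (20.9% of all genes in both directions). Of the 6 neutrophil markers tested, 4 were higher without overlap (19.0% of all genes). Among these, S100A8 had 3, 4 and 5 counts in WT and 20 and 26 in S04 and S05. It thus entered the test through the group where it was high. Of the 10 listed, MPO, ELANE, MMP9 and MMP8 had too few counts, with ELANE and MMP9 at 0 in S04 and S05. The number of neutrophil markers that were higher therefore cannot be set against that share. No marker of these lists was at 0 in all libraries. The part of these differences in the results for the carriers was not tested, and in whole liver fewer cells of a type and less RNA per cell cannot be told apart.

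SLC38A3, also called SNAT3 or SN1, exchanges sodium and glutamine for protons and can run in either direction across the hepatocyte membrane. The gene occupies chromosome 13 of Sscrofa11.1 between 32683131 and 32699803. WT1, WT2 and WT3 had 250.3, 282 and 315 CPM, whereas S04, S05 and S03 had 131, 154 and 122 CPM. All 3 ASGR1+/- livers were thus below each WT liver, and S03 was the lowest. The WT mean was 282 ± 32.1 CPM (SD, n = 3), and that of S04 and S05 was 143 ± 16.4 CPM (SD, n = 2). On the log2 scale the difference was -0.98 (SE 0.20, 95% interval -1.45 to -0.51), a ratio of 0.506, with an adjusted p of 0.0696 from edgeR and 0.00012 from DESeq2. With S03 included the difference was -1.06 (adjusted p of 0.068 from edgeR and 7.4e-06 from DESeq2). Over the 13 alternative settings the adjusted p ran from 7.4e-06 to 0.226, and the fits of DESeq2 alone passed SLC38A3.

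A ratio of genes within 1 library does not depend on the scaling between libraries. The ratio of SLC38A4 to SLC38A3, chosen after the values were seen, was 1.44 in WT1, 1.43 in WT2 and 1.27 in WT3 on the TPM scale. The ASGR1+/- livers had ratios of 3.79 (S04), 2.43 (S05) and 2.18 (S03), so the groups did not overlap. For SLC38A2 over SLC38A3 the ratio was 0.385 to 0.706 in WT and 1.38 (S04), 0.734 (S05) and 1.31 (S03) in ASGR1+/-. GLS2, the liver glutaminase that splits glutamine inside the hepatocyte, was also named after its values were seen. It stood at 91.3 to 132 CPM in WT, 66.7 and 49.9 CPM in S04 and S05, and 90.9 CPM in S03 (adjusted p of 0.112 from edgeR and 0.0225 from DESeq2 for S04 and S05).

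**Figure D3:**
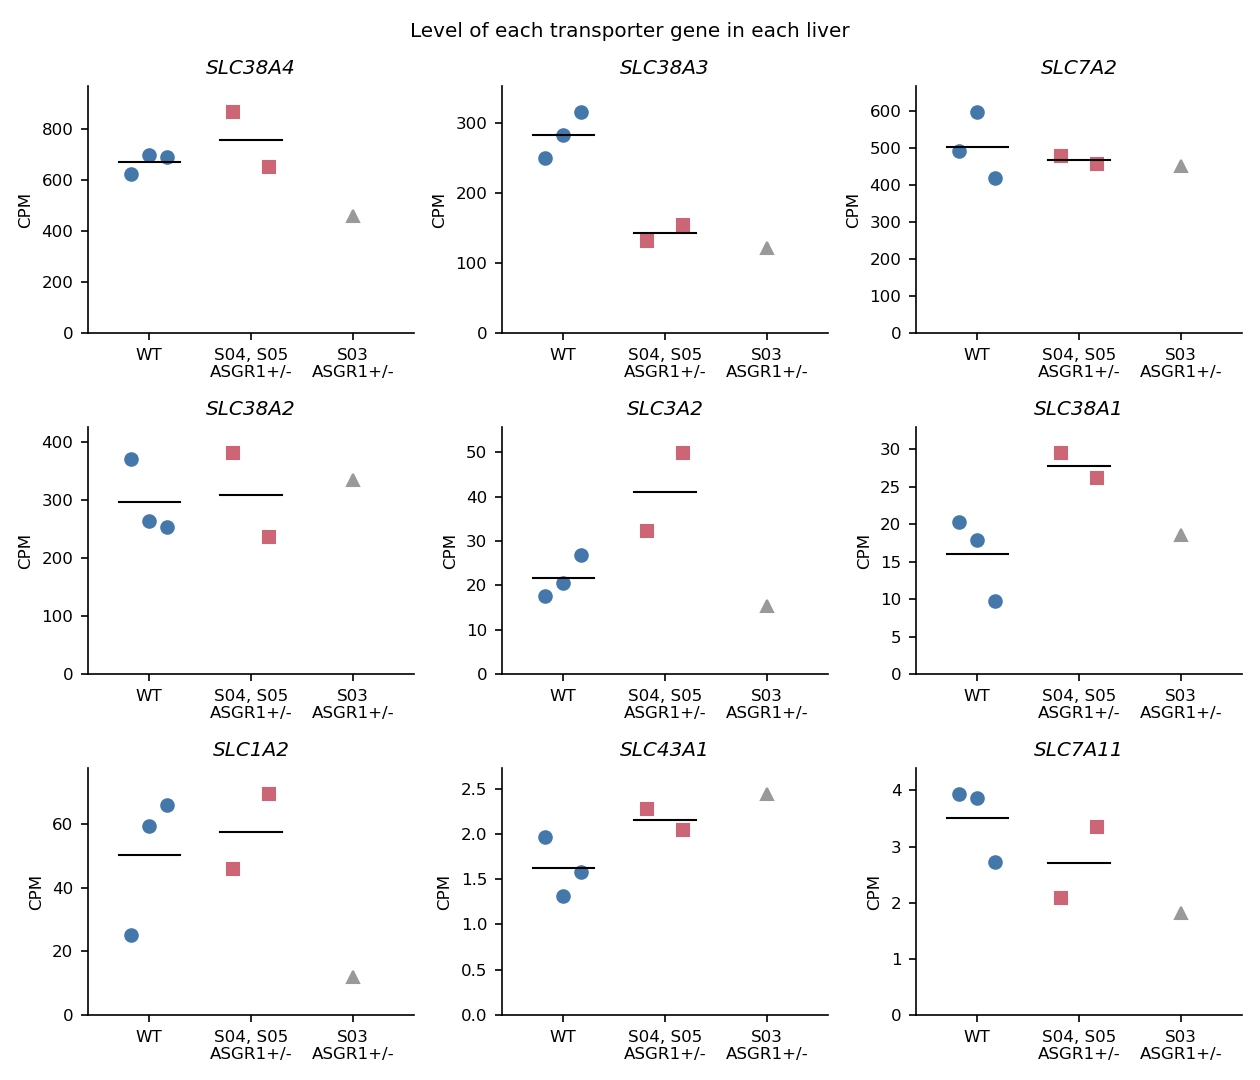
Each panel gives 1 gene, with CPM on an axis from 0, 1 point per liver (circles WT, squares S04 and S05, triangle S03) and a line at the mean of WT and of S04 and S05. SLC38A3 was 250.3 to 315 CPM in WT and 122 to 154 in the ASGR1+/- livers, and SLC3A2 stood above WT in S04 and S05 but not in S03.

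SLC3A2 encodes the heavy chain 4F2hc (CD98), a glycoprotein that carries no substrate itself and brings light chains such as those of SLC7A5, SLC7A6, SLC7A7, SLC7A8 and SLC7A11 to the plasma membrane. It occupies chromosome 2 between 8892071 and 8919070. WT1, WT2 and WT3 had 17.7, 20.6 and 26.7 CPM of SLC3A2, and S04 and S05 had 32.3 and 49.7 CPM. S03, at 15.3 CPM, was below every WT liver, so the 3 ASGR1+/- livers lay on both sides of WT. For S04 and S05 the log2 difference was 0.92 (SE 0.26, 95% interval 0.32 to 1.53), a ratio of 1.90, with an adjusted p of 0.118 from edgeR and 0.0325 from DESeq2. With S03 included the difference was 0.58, which neither tool passed (adjusted p of 0.515 from edgeR and 0.534 from DESeq2). Without S05 the difference was 0.60 (adjusted p of 0.429 from edgeR).

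Among the light chains analysed, SLC7A7 was the most abundant in every library. SLC7A7 encodes y+LAT1, which exports cationic amino acids in exchange for neutral ones and sodium. Its level was 13.7 to 23.1 TPM in WT, 22.7 in S04, 27.8 in S05 and 19.7 in S03, of the same order as its heavy chain. In CPM, S04 (32.9) and S05 (37.6) were above WT (22.9 to 29.5), a log2 difference of 0.46 (adjusted p of 0.212 from edgeR). SLC7A6, SLC7A8 and SLC7A11 each stayed under 2 TPM in every library. SLC3A2 over the sum of these 4 light chains gave 0.557, 0.804 and 1.15 in WT1, WT2 and WT3, and 1.04, 1.31 and 0.608 in S04, S05 and S03. The groups overlapped for this ratio, which leaves out SLC7A5. SLC7A6, SLC7A7 and SLC7A8 were picked for this purpose after their values were seen.

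**Figure D4:**
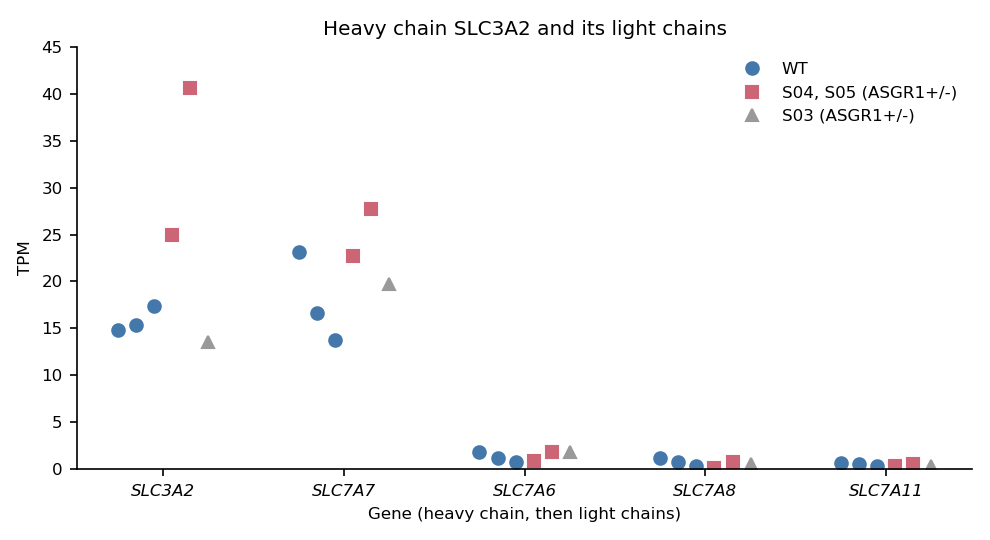
Points give the TPM of the heavy chain gene SLC3A2 and of 4 light chain genes in each liver (circles WT, squares S04 and S05, triangle S03). SLC3A2 stood highest in S05 (40.6 TPM), SLC7A7 lay at 13.7 to 27.8, and the other light chains stayed under 2.

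SLC38A1, SLC38A2 and SLC38A4 are neighbours on chromosome 5 of Sscrofa11.1, where they span 479.7 kb between 77009840 and 77489542. SLC38A1 and SLC38A2 lie 36.8 kb apart, and SLC38A2 and SLC38A4 lie 284 kb apart. All 3 encode sodium-coupled importers of neutral amino acids, SNAT1, SNAT2 and SNAT4. Their WT means spread from 5.81 TPM for SLC38A1 through 86.0 for SLC38A2 to 231 for SLC38A4.

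SLC38A1, which is best known from neurons and dividing cells, had 20.4, 17.9 and 9.70 CPM in the WT livers and 29.4 and 26.2 CPM in S04 and S05. Both were above every WT liver, while S03 (18.5) was within the WT range. It differed by 0.80 on the log2 scale (SE 0.31, 95% interval 0.071 to 1.52, a ratio of 1.74), with an unadjusted p of 0.0358 and an adjusted p of 0.206 from edgeR, and 0.16 from DESeq2. Leaving out WT3, the lowest library, gave 0.54.

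SLC38A2, a carrier known to rise in other mammals when amino acids run short, did not separate the groups. WT1, WT2 and WT3 had 371, 263 and 253 CPM of it, and S04, S05 and S03 had 380.2, 237 and 335 CPM. S04 was the highest and S05 the lowest of the 6 libraries. A log2 difference of 0.061 resulted (SE 0.28, 95% interval -0.61 to 0.73, adjusted p of 0.924 from edgeR).

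SLC38A4 had 626, 701 and 690.4 CPM in the WT livers and 866 and 653 CPM in S04 and S05, so the groups overlapped. S03 had 461 CPM, the lowest of all libraries. Its log2 difference was 0.18 without S03 (95% interval -0.33 to 0.68, adjusted p of 0.675 from edgeR) and -0.027 with it (adjusted p of 0.970).

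SLC7A2 encodes CAT2, the low-affinity carrier through which hepatocytes take up arginine and other cationic amino acids. The gene occupies chromosome 17 between 5191973 and 5271849. WT1, WT2 and WT3 had 492, 595 and 419 CPM, and the ASGR1+/- livers had 478 (S04), 456 (S05) and 451 (S03), all within the WT range. Its log2 difference was -0.10 (SE 0.22, 95% interval -0.62 to 0.41, adjusted p of 0.821 from edgeR).

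SLC7A11 encodes xCT, which brings in cystine for glutathione synthesis in exchange for glutamate. It rested on few reads, with 66, 56 and 38 counts in the WT livers, 34 and 54 in S04 and S05, and 32 in S03. S05 was within the WT range, and S04 and S03 were below it. Its log2 difference was -0.37 (95% interval -1.24 to 0.50, adjusted p of 0.608 from edgeR). SLC43A1, which encodes LAT3, had 33, 19 and 22 counts in the WT livers, 37 and 33 in S04 and S05, and 43 in S03. In CPM all 3 ASGR1+/- livers (2.27, 2.04 and, for S03, 2.43) were above the WT livers (1.31 to 1.96). The log2 difference of S04 and S05 was 0.41, with a 95% interval of -0.47 to 1.29 (adjusted p of 0.575 from edgeR).

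SLC1A2 encodes the glutamate carrier GLT-1 (EAAT2), which in rodent liver marks the hepatocytes around the central vein that also make glutamine. WT1, WT2 and WT3 had 25.0, 59.4 and 66.0 CPM, and S04 and S05 had 45.8 and 69.2 CPM. The groups overlapped, and S03 (11.8) was below every other liver. Its log2 difference was 0.20 without S03 (SE 0.41, adjusted p of 0.815 from edgeR) and -0.25 with it (adjusted p of 0.880). GLUL, the glutamine synthetase of those same hepatocytes, had 160.5, 144 and 827 CPM in the WT livers, 134 and 574 in S04 and S05, and 69.6 in S03. Both genes were at their lowest in S03, and WT3 and S05 had the highest values for each. OAT, which makes glutamate from ornithine in the same zone in rodents, was at 105 to 287 CPM in WT, 76.1 and 54.3 in S04 and S05, and 146 in S03 (adjusted p of 0.153 from edgeR and 0.0232 from DESeq2). RHBG, an ammonium carrier of that zone, was at 15.3 to 20.8 CPM in WT, 25.0 and 3.78 in S04 and S05, and 27.4 in S03. Of 12 pericentral genes, edgeR passed 1, the cytochrome P450 gene CYP1A2, which fell (0.575% of all genes), and DESeq2 passed 5 as lower (6.30% of all genes), OAT among them.

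A further list of 39 genes was mainly of the remaining amino acid carriers of the plasma membrane. Of these, 30 were analysed and 22 had enough counts to be tested. None passed with edgeR (0.791% of all genes), while 4 had higher and 2 lower values at an unadjusted p under 0.05 (20.9% of all genes in both directions). DESeq2 passed 3 as higher (3.26% of all genes) and 1 as lower (6.30%). Their median log2 fold change was -0.12, beside 0.0031 over all genes. SLC16A10, SLC1A1 and SLC1A5 had the lowest p-values and were the 3 that DESeq2 passed as higher. The lower one, SLC3A1, the heavy chain of the cystine carrier, was named after its values were seen. It had 4.70, 7.66 and 0.862 CPM in the WT livers, 0.981 and 0.682 in S04 and S05, and 1.47 in S03, so WT3 lay between S04 and S05 (log2 difference -2.40, adjusted p of 0.186 from edgeR and 0.041 from DESeq2).

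SLC16A10 (TAT1), which lets aromatic amino acids pass, had 40.0, 46.3 and 30.4 CPM in the WT livers, 62.1 and 105.9 in S04 and S05, and 31.1 in S03. Its log2 difference was 1.11 (SE 0.28, adjusted p of 0.0965 from edgeR and 0.0104 from DESeq2). S04 and S05 were above all WT livers, and S03 was within their range. SLC1A1, the glutamate, aspartate and cysteine carrier EAAT3, had 17.1, 22.1 and 43.9 CPM in the WT livers, 63.0 and 94.6 in S04 and S05, and 29.3 in S03. It differed by 1.51 on the log2 scale (SE 0.40, adjusted p of 0.107 from edgeR and 0.0079 from DESeq2), with the same placing of the libraries. SLC1A5 (ASCT2), an exchanger of glutamine and other neutral amino acids, had 16.8, 10.6 and 9.70 CPM in the WT livers, 22.1 and 25.7 in S04 and S05, and 21.8 in S03. It differed by 0.95 (SE 0.27, adjusted p of 0.123 from edgeR and 0.0434 from DESeq2), and here S03 too was above all WT livers.

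**Figure D5:**
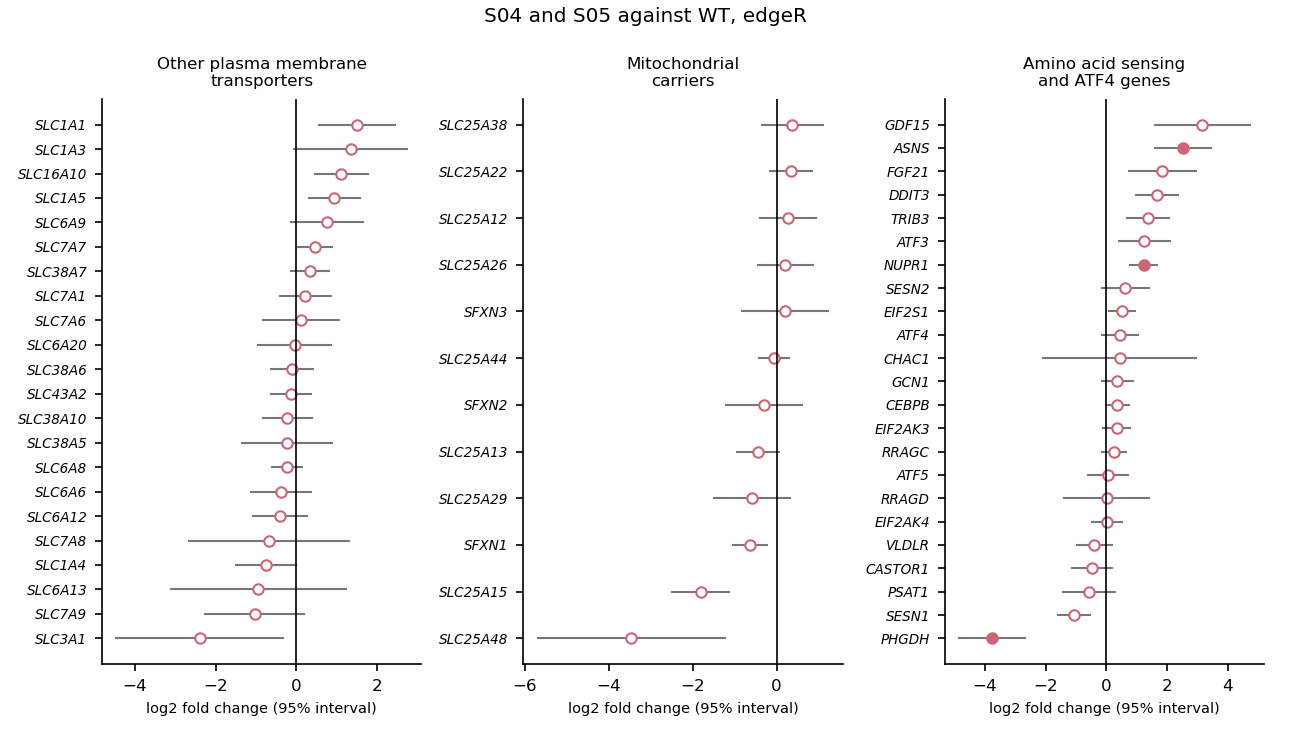
Circles give log2 fold changes for S04 and S05 relative to WT from edgeR, with 95% intervals not adjusted for the number of genes, and filled circles mark an adjusted p of 0.05 or less. No gene of the panels of plasma membrane and mitochondrial carriers is filled, and ASNS, NUPR1 and PHGDH are filled among the amino acid sensing and ATF4 genes.

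Of 12 mitochondrial carriers tested, none passed with edgeR (0.791% of all genes). At an unadjusted p under 0.05, 3 had lower values and none higher (20.9% of all genes in both directions), and DESeq2 passed the same 3 as lower (6.30% of all genes). SLC25A15, which exchanges ornithine and citrulline for the urea cycle, had 611, 772 and 436 CPM in the WT livers, 178 and 168 in S04 and S05, and 324 in S03. All 3 ASGR1+/- livers were below WT. Its log2 difference was -1.81 (SE 0.29, adjusted p of 0.0503 from edgeR and 9.9e-08 from DESeq2), and -1.44 with S03 (adjusted p of 0.108 from edgeR). SFXN1, the mitochondrial serine carrier, was at 60.3 to 71.7 CPM in WT, 46.9 and 38.7 in S04 and S05, and 75.1 in S03. It differed by -0.64 (adjusted p of 0.115 from edgeR and 0.0403 from DESeq2). SLC25A48 was at 3.11 to 10.8 CPM in WT, 1.10 and 0.062 in S04 and S05, and 2.60 in S03. It differed by -3.47 (adjusted p of 0.113 from edgeR and 0.0016 from DESeq2), and S05 held 1 count of it.

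Of 7 lysosomal carriers none passed with edgeR (0.791% of all genes) or with DESeq2 (9.57%), and edgeR alone gave 1 of them an unadjusted p under 0.05 (20.9% of all genes). That gene, with lower values, was SLC15A4, a carrier of histidine and small peptides, with 35.6 to 40.8 CPM in WT, 30.4 and 26.7 in S04 and S05, and 37.4 in S03. CTNS, the cystine exporter of lysosomes, was at 13.2 to 18.1 CPM in WT and at 14.0 and 8.80 CPM in S04 and S05, while S03 (19.0) was above WT. It differed by -0.40 without S03 and by -0.11 with it (adjusted p of 0.46 and 0.893 from edgeR). SLC29A3, a nucleoside carrier listed with them, was at 3.45 to 5.89 CPM in WT and at 2.02 and 3.78 CPM in S04 and S05, with 2.55 in S03.

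Of 23 genes of amino acid sensing and of the ATF4 response, ASNS and NUPR1 rose (0.216% of all genes) and PHGDH fell (0.575%) in S04 and S05 with edgeR. At an unadjusted p under 0.05 from edgeR, 8 were higher and 2 lower (20.9% of all genes in both directions). Without overlap with WT, 12 were higher (19.0% of all genes) and 4 lower (20.1%). GDF15, named after its values were seen, had 9, 1 and 11 counts in WT and 66 and 71 in S04 and S05. It entered the test, and the 12, through the group where it was high. The median log2 fold change of the 23 was 0.36, beside 0.0031 over all genes. DESeq2 passed 7 as higher (3.26% of all genes) and 2 as lower (6.30%), PHGDH and SESN1, a stress-induced regulator of mTORC1 that was named after its values were seen. With S03 included, and without S04, S05 or WT2, edgeR passed none of the 23, without WT1 it passed 1, and without WT3 it passed 2. Calls over all genes went from 106 to 18 with S03 included, to 2, 0 and 5 without S04, S05 and WT2, to 53 without WT1 and to 115 without WT3. With S03 included the log2 differences were 2.03 for ASNS, 1.07 for NUPR1 and -3.12 for PHGDH. ASNS, which makes asparagine, had 6.31, 3.11 and 8.77 CPM in the WT livers, 29.6 and 40.0 in S04 and S05, and 4.93 in S03. It differed by 2.52 (SE 0.39, adjusted p of 0.0479 from edgeR), and S03 was within the WT range, as it was for SLC38A1. NUPR1, a small stress-induced chromatin protein, was at 187 to 213 CPM in WT, 509.7 and 414 in S04 and S05, and 322 in S03 (log2 difference 1.22, adjusted p of 0.0479 from edgeR). PHGDH, which opens serine synthesis and is itself known as a target of ATF4, was at 36.1 to 69.8 CPM in WT, 5.70 and 2.48 in S04 and S05, and 11.0 in S03. It differed by -3.76 (adjusted p of 0.0363 from edgeR), the opposite direction to ASNS. ATF4 itself was at 160.1 to 249 CPM in WT, 239.7 and 278 in S04 and S05, and 147 in S03 (log2 difference 0.45, adjusted p of 0.359 from edgeR).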

How the data were processed

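RNA of each liver was sequenced by the authors on a BGISEQ instrument. Per the paper's methods, reads were filtered with SOAPnuke and aligned with HISAT and Bowtie2. Processing notes of the submitters name HISAT2 2.0.4, Bowtie2 and Sscrofa11.1. The deposited estimated counts per gene are not normalized, and the tool that made them is not given in the sources used here. The deposited TPM was scaled by the authors to gene length and library. Their FPKM and group averages were not used. Libraries were grouped by the genotype in their labels.

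Of the count cells, 12.0% were not whole, and counts were rounded. All genes were fitted with the quasi-likelihood test of edgeR 4.0.16 (R 4.3.3), with TMM scaling, filterByExpr (minimum count 10) and Benjamini-Hochberg adjustment over all genes tested. The SE was taken from the log2 fold change and its F statistic. The fit was tested on simulated data. Alternatives were DESeq2 1.42.0, limma 3.58.1 on log2(TPM + 1) and log2(TPM + 0.1) for genes with a TPM of at least 1 in 2 libraries, RLE factors, no filter, S03 included, and each library left out. DESeq2 with S03 and library totals without TMM were added after the data were seen. The replicate is the animal, and counting error weighs as well where a gene has few counts (SLC7A11, SLC43A1, SLC25A48, SLC3A1 and, in S04 and S05, PHGDH).

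The carriers and lists were chosen with earlier results of these data known. Every carrier of the list was named, and of each other pathway list the genes called or, where fewer than 3 were, those with the lowest p up to 3. Marker, pericentral and periportal lists are given mainly as sums or counts, with GLUL, OAT and RHBG beside SLC1A2. All 17109 gene IDs matched RefSeq genes of Sscrofa11.1, whose positions are printed.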

Additional observations from a re-analysis of the deposited data

Results flagged for a closer look

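SLC43A1 had 2.43 CPM (43 counts) in S03, a library outside the main comparison, above the 1.31 to 1.96 CPM (19 to 33 counts) of the WT livers. No other of the 9 carriers was above every WT liver in S03.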

How the results depend on the processing

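No carrier of the 9 passed with edgeR or limma under any setting. DESeq2 passed 2 of them, and 1 with all 6 libraries. Over all genes, DESeq2 passed 9.57%, and 5.64% with all 6 libraries. The share from limma was 1.84% on log2(TPM + 1) and 1.71% on log2(TPM + 0.1). From edgeR it was 0.891% without a filter on low counts and 0.791% in the main comparison. Of the other plasma membrane carriers DESeq2 passed 4, and 1 with all 6 libraries, against none in the main comparison, and leaving out 1 library gave 0 to 1. Of the mitochondrial and lysosomal carriers, DESeq2 passed 3, and 1 with all 6 libraries, while 1 passed without a filter on low counts and 1 on each TPM scale, and leaving out 1 library gave 0 to 1. Of the amino acid sensing and ATF4 genes, 3 passed in the main comparison, 9 with DESeq2, 8 with DESeq2 and all 6 libraries, 5 on log2(TPM + 1), 0 with S03 included and 0 to 2 when 1 library was left out. Over all genes edgeR passed 106 in the main comparison, 18 with S03 included and 0 to 115 when 1 library was left out.

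Of 115 values of the log2 fold changes of the 9 carriers under the alternatives, 13 changed sign, all of carriers far from the threshold. SLC7A2 turned to 0.0084 and 0.0089 on the TPM scales, and ran from -0.22 to 0.035 without 1 library. SLC38A4 turned to -0.027 with S03 included and -0.023 with DESeq2 and all 6 libraries, and SLC1A2 to -0.25 and -0.24. Without 1 library SLC38A2 ran from -0.32 to 0.38, SLC38A4 from -0.041 to 0.38 and SLC1A2 from -0.11 to 0.47. The cause was not tested. SLC38A3 (-1.09 to -0.87) and SLC3A2 (0.58 to 1.20) kept their sign under all 13 alternatives. The TPM scales moved the median of all genes by 0.097 and 0.11 and library totals by 0.10 (log2), and SLC38A3, SLC3A2 and SLC38A1 stayed on their side of that shift. No paired analysis was possible because S04 and S05 share no number in the labels with WT1, WT2 or WT3. With 2 animals against 3, 1 animal weighs heavily on each value, and the depth limits SLC7A11 and SLC43A1.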
